A study of Arachis hypogaea with 30 samples.

Results

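Whole seedlings of the peanut cultivar HY33 were compared with those of HY9115 after 3 h in 100 mM NaCl. HY33 is the salt-tolerant one of the pair and HY9115 the salt-sensitive one, per the labels. Seedlings of both cultivars grew in hydroponic boxes to the 3-leaf stage, and the culture solution was then exchanged for the salt solution. The comparison used 6 of the 30 poly(A) RNA libraries of the study, 3 of HY33 and 3 of HY9115. Of 82955 genes it took in the 42311 that reached 1 FPKM in at least 3 of the 30 libraries, where FPKM is fragments per kilobase of gene length, scaled to the counted total of the library. The 3 HY33 and 3 HY9115 libraries taken from water at 0 h are set beside it, to show which differences were there before salt. Just inside the expression rule lay 640 genes with exactly 3 libraries at 1 FPKM or more, with a median of 1.07 FPKM in the third of their libraries by level. Just outside lay 782 genes with 2 such libraries and a median of 0.91 FPKM there. Water was sampled at 0 h only, so the hours passed and the time of day go with the salt, and with 1 cultivar of each kind, tolerance and cultivar cannot be told apart. The labels number 3 biological replicates a group without saying whether each was a plant or a pool, so a p-value reflects no more than the spread over the sampled libraries, which may be technical.

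Peanut (Arachis hypogaea) is an allotetraploid legume, and most of its genes occur as near-identical copies in both subgenomes. Salt around the root first lowers the water available to the plant and then lets sodium and chloride build up in its tissues. Plants are known to answer with abscisic acid signalling, compatible solutes such as proline and raffinose-family sugars, chaperones that keep proteins soluble, and antiporters that use the proton gradient made by proton pumps to move sodium out of the cytosol. Peanut also makes resveratrol and related stilbenes from the phenylpropanoid pathway when stressed.

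The 6 libraries at 3 h held 15110297 to 18788677 counts and 50649 to 51439 genes with a count, and their 10 most abundant genes took 2.8 to 3.77% of the counts. Markers of green shoot (32 genes) summed to 22520 ± 1540 FPKM in HY33 and 12110 ± 851 FPKM in HY9115 at 3 h (SD, n = 3 each, as in all means below). Those of root (27 genes) summed to 139.6 ± 11.1 FPKM in HY33 and 154 ± 20.3 FPKM in HY9115. Models annotated as rRNA, a sign of what escaped poly(A) selection, summed to 169 ± 16.2 FPKM in HY33 and 102 ± 26.1 FPKM in HY9115. Coordinates are those of the deposited table, and the genome build they refer to was not given in the sources used here. At 0 h, 7 stretches of neighbouring genes differed between the cultivars as a block. The median given for 3 h was smaller in size in each, to differing degrees. The 0 h median came from the search for stretches and the 3 h median from the tested log2 differences, so they are not the same measure. For the stretch found at 3 h these measures gave -0.70 and -0.71. The search at 0 h required a median of at least 0.5 in size, so smaller values at 3 h are partly built in. On chromosome 14 from 137254583 to 140440295, 169 tested genes had a median log2 difference (HY33 minus HY9115) of -1.88 at 0 h and -0.14 at 3 h. On chromosome 12 from 117722663 to 118249169, 30 genes had a median of -3.12 at 0 h and -0.48 at 3 h. On chromosome 4 from 123229879 to 125995029, 176 genes had a median of 0.76 at 0 h and -0.04 at 3 h. In others the medians of 0 h and 3 h lay closer together. On chromosome 17, 21 genes had a median of 1.24 at 0 h and 1.1 at 3 h. On chromosome 1, 24 genes had 1.33 and 0.94, and on chromosome 10, 15 genes had 1.22 and 0.6. At 3 h, 1 stretch was found, on chromosome 14 from 12494988 to 13294771, with 15 genes and a median of -0.70. Regions overlapping those of 0 h were found again at 24 h on chromosomes 14 (median -0.87) and 4 (0.69). At 48 h this held for chromosomes 12 (-1.46) and 2 (0.62). On chromosome 1 an overlapping region had a median of -0.95 at 12 h, opposite in sign to 0 h. Over all times the search returned 14 stretches, counting these repeats, which held 497 genes, of which 66 were called at 3 h and 309 at 0 h. The counts of all genes called at 0 h and for the change between 0 h and 3 h are therefore given below with and without these genes, while the overlap of the 3 h and 0 h lists and the counts of gene lists include them.

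In what follows a gene was higher or lower in HY33 where its log2 difference was at least 1 in size with an adjusted p under 0.05 (edgeR's quasi-likelihood test, Benjamini-Hochberg), and log2 differences are HY33 minus HY9115 with their standard error. After 3 h in salt 2474 of 42311 genes passed, 5.85% of those tested: 873 were higher in HY33 (2.06%) and 1601 were lower (3.78%). Most of these differences were small, with 485 of the higher and 937 of the lower genes between 1 and 2 on the log2 scale, while 230 and 220 exceeded 5. The libraries of the cultivars did not overlap for 15100 genes, 35.7% of those tested. In water at 0 h, 2417 genes passed (5.71%), 1255 higher (2.97%) and 1162 lower (2.75%), or 2106 without the stretches. Of the 3 h list, 1007 genes were on the 0 h list in the same direction, which is 40.7% of the 3 h list and 41.7% of the 0 h list. This share was 54% for genes higher in HY33 at 3 h and 33.5% for genes lower, and 20 genes had changed sides. The test of whether the cultivars' changes between 0 h and 3 h differed (HY33 change minus HY9115 change, called the difference of changes below) passed for 1881 genes (4.45%), 633 higher (1.5%) and 1248 lower (2.95%), or 1630 without the stretches. Whether the plants taken at 0 h and at 3 h grew from the same seed lots was not given in the sources used here, and its part in the 0 h values and in the difference of changes was not tested. Within HY33 2795 genes rose (6.61%) and 3154 fell (7.45%) between 0 h and 3 h, and within HY9115 3500 rose (8.27%) and 2721 fell (6.43%).

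**Figure D1:**
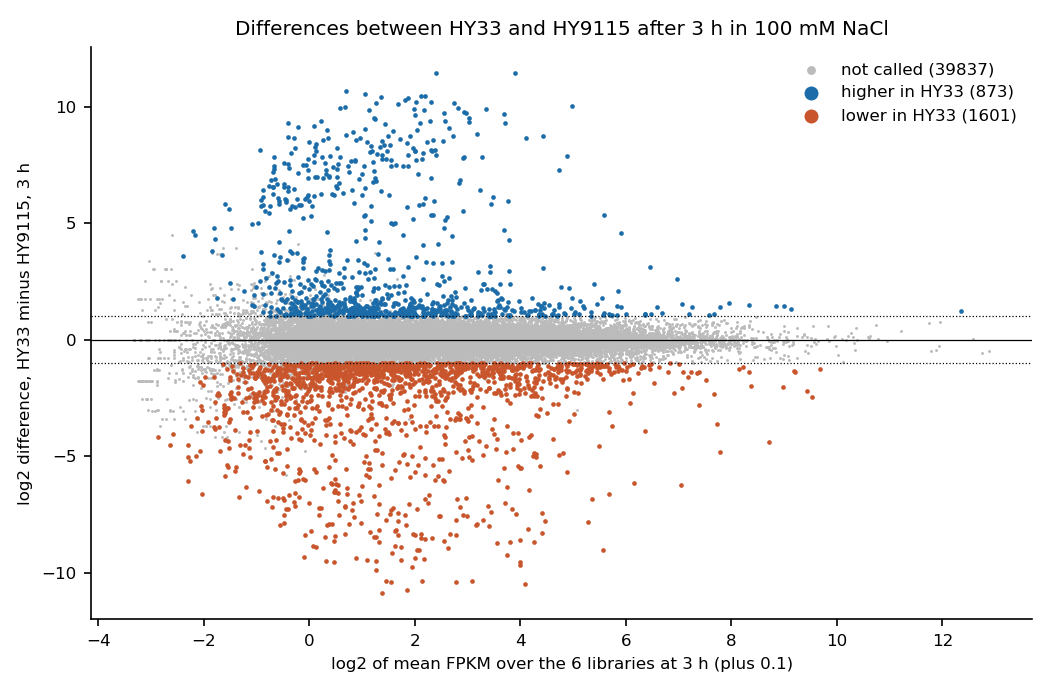
Log2 difference between HY33 and HY9115 at 3 h in 100 mM NaCl (vertical axis) against the log2 of the mean FPKM over the 6 libraries plus 0.1 (horizontal axis), 1 point per tested gene; blue points are the 873 genes higher in HY33, orange points the 1601 lower, grey points did not pass, and dotted lines mark a log2 difference of 1 in either direction. The lower genes outnumber the higher ones between 1 and 5, while beyond 5 there are 220 lower and 230 higher.

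Many chaperone genes were lower in HY33 at 3 h, counted beside the 2.06% higher and 3.78% lower of all genes. Small heat shock proteins, which hold unfolding proteins in solution, were lower in HY33 for 21 of 29 tested genes and higher for 0. Their median log2 difference was -2.19, beside -0.016 over all tested genes, and 28 of the 29 values were below 0. In water the same genes had a median of 0.19, with 1 higher and 1 lower. Between 0 h and 3 h, 4 of them rose and 2 fell in HY33, while 21 rose in HY9115, and the difference of changes passed for 19, all lower. Their summed level was 228 ± 19.5 FPKM in HY33 and 259 ± 14.1 FPKM in HY9115 at 0 h and 544 ± 43.8 FPKM in HY33 and 966 ± 131 FPKM in HY9115 at 3 h. At 12 h the sums were 2699 ± 84.5 FPKM in HY33 and 2520 ± 222 FPKM in HY9115, and at 48 h they were 3776 ± 465 FPKM in HY33 and 2361 ± 222 FPKM in HY9115.

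Single genes show how far apart the cultivars were at 3 h. Ah09g260000 (chr9:83846614-83847568), a small heat shock protein gene, had 0.14, 0 and 0.06 FPKM in the HY33 libraries and 11.9, 23.8 and 16.8 FPKM in the HY9115 libraries, a log2 difference of -7.95 ± 0.42 (adjusted p = 1.1e-16). It was close to silent in all HY33 libraries and above 10 FPKM in all HY9115 libraries, and at 12 h it averaged 114 FPKM in HY33 and 39.1 FPKM in HY9115. Ah07g106200 (chr7:11314812-11315973) had 7.46, 8.98 and 6.87 FPKM in the HY33 libraries and 73.3, 133 and 89.5 FPKM in the HY9115 libraries (log2 difference -3.7 ± 0.17, adjusted p = 1.65e-18), against 7.26 FPKM in HY33 and 8.43 FPKM in HY9115 at 0 h. Another small heat shock gene, Ah13g499200 (chr13:130844417-130845261), had 4.31, 7.61 and 3.34 FPKM in the HY33 libraries and 44.2, 72.3 and 49.1 FPKM in the HY9115 libraries (-3.49 ± 0.21, adjusted p = 6.27e-15). The HY33 means of all 3 genes at 3 h were close to those of water, and the second HY9115 library was the highest for each of these genes. The 2 most abundant members did not pass, and their libraries overlapped. Ah17g046800 averaged 222 ± 18.1 FPKM in HY33 and 234 ± 16 FPKM in HY9115 at 3 h (adjusted p = 0.449). Ah07g041700 averaged 214 ± 11 FPKM in HY33 and 222 ± 16.3 FPKM in HY9115 (adjusted p = 0.552). Both levels were several times those of water in both cultivars, where Ah17g046800 averaged 54.2 FPKM in HY33 and 66 FPKM in HY9115.

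**Figure D2:**
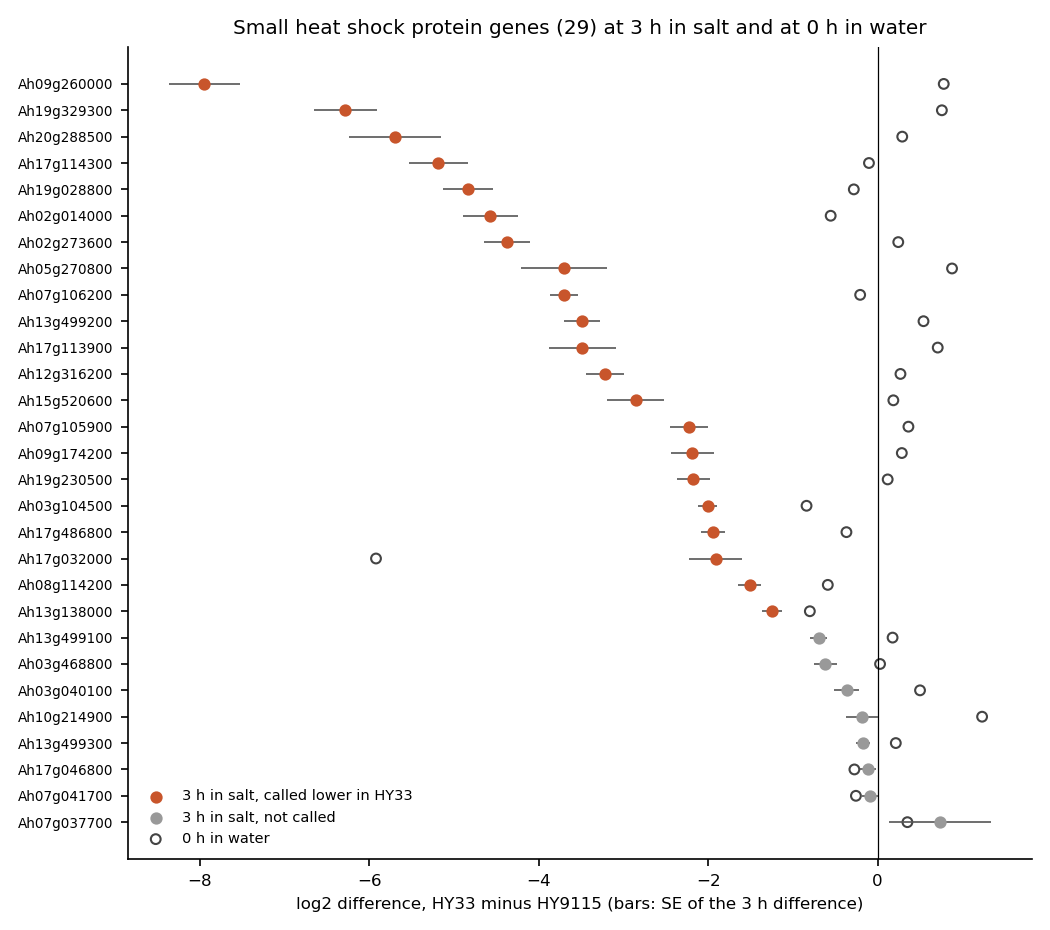
Log2 difference between HY33 and HY9115 (horizontal axis) for each of the 29 small heat shock protein genes (rows); filled points are 3 h in 100 mM NaCl with bars for the standard error, orange where called lower and grey where not called, and open circles are 0 h in water. At 3 h 28 of the 29 lie left of 0 while the open circles scatter about 0 with a median of 0.19.

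The large chaperones followed in part. Of 19 HSP70 genes, whose products fold proteins with ATP, 5 were lower and 1 higher in HY33 (median -0.32). Ah19g016400 (chr19:1240404-1245274) had 0.46, 0.79 and 0.52 FPKM in the HY33 libraries and 11.1, 20.6 and 14.3 FPKM in the HY9115 libraries (log2 difference -4.74 ± 0.25, adjusted p = 1.38e-16). Ah09g005700 (chr9:457613-460157) had 2.02, 1.54 and 2.2 FPKM in the HY33 libraries and 24.5, 45.4 and 31.8 FPKM in the HY9115 libraries (-4.17 ± 0.22, adjusted p = 7.23e-17). Neither gene passed in water, where their log2 differences were -0.41 ± 0.38 and -0.27 ± 0.27, and the difference of changes was -4.33 ± 0.49 (adjusted p = 8.5e-08) for the first and -3.9 ± 0.35 (adjusted p = 7.2e-10) for the second. The most abundant HSP70 gene, Ah06g001000, averaged 215 ± 18.7 FPKM in HY33 and 242 ± 2.4 FPKM in HY9115 and did not pass (-0.2 ± 0.072). HSP90 genes, encoding chaperones of kinases and receptors, were lower for 4 of 16, led by Ah05g450000 with 5.29, 5.22 and 6.19 FPKM in HY33 against 16, 24.9 and 21.2 FPKM in HY9115 (-1.93 ± 0.13, adjusted p = 5.52e-14). The disaggregase family HSP100/ClpB had 3 lower of 13, among them Ah11g340000 with 0.63, 0.65 and 0.57 FPKM in HY33 against 6.64, 9.51 and 7.03 FPKM in HY9115 (-3.69 ± 0.16, adjusted p = 3.38e-19). This family's median was -0.35 at 3 h and -0.29 in water, where 2 genes were lower. Its difference of changes passed as higher for 2 genes and as lower for 2. By 12 h Ah05g450000 averaged 218 FPKM in HY33 and 216 FPKM in HY9115 and Ah11g340000 45.6 FPKM in HY33 and 43.6 FPKM in HY9115. Of 40 genes for heat shock factors, the transcription factors that switch on chaperone genes, 1 was lower (2.5%, against 3.78% of all genes) and none was higher at 3 h. Among them Ah16g055700 had 3.19, 3.75 and 3.35 FPKM in HY33 against 7.67, 5.51 and 6.7 FPKM in HY9115, just under the threshold at -0.98 ± 0.23 (adjusted p = 0.00119). Its difference of changes of -1.05 ± 0.34 (adjusted p = 0.0341) was not called when any of several single libraries was left out, for example -0.92 without the first HY9115 library at 3 h. Over the whole heat shock list of 117 genes 34 were lower and 1 was higher.

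Genes of raffinose-family sugars and of seed maturation were next. Raffinose and stachyose synthases, which build oligosaccharides that protect membranes during drying, were lower in HY33 for 5 of 16 genes, with 15 below 0 and a median of -0.69. Of all tested genes 3.78% were lower. In water 3 of the 16 were already lower and the median was -0.43, and the difference of changes passed for 2, both lower. Ah16g052500 (chr16:7788087-7792919) had 0.94, 0.51 and 0.45 FPKM in the HY33 libraries and 20, 19.6 and 16.8 FPKM in the HY9115 libraries, a log2 difference of -4.94 ± 0.36 (adjusted p = 5.55e-13). Ah06g109100 (chr6:11870156-11875826) had 0.97, 0.77 and 0.81 FPKM in the HY33 libraries and 15.6, 15.6 and 14.4 FPKM in the HY9115 libraries (-4.2 ± 0.37, adjusted p = 5.73e-11). In water they averaged 1.42 FPKM in HY33 and 3.57 FPKM in HY9115 for the first and 0.873 FPKM in HY33 and 1.75 FPKM in HY9115 for the second. Both passed the difference of changes, at -3.62 ± 0.56 (adjusted p = 1.76e-05) and -3.18 ± 0.62 (adjusted p = 0.000446). The family's summed level was 97.4 ± 5.54 FPKM in HY33 and 123 ± 3.27 FPKM in HY9115 at 0 h and 198 ± 2.01 FPKM in HY33 and 304 ± 13.3 FPKM in HY9115 at 3 h.

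Galactinol synthases, which make the galactosyl donor for that pathway, had another order, beside 2.06% higher and 3.78% lower of all genes at 3 h. Of 8 genes 4 were already higher in HY33 in water, and at 3 h 1 was higher and 1 lower. The most abundant, Ah09g150200, averaged 21.3 FPKM in HY33 and 6.42 FPKM in HY9115 at 0 h (log2 difference 1.74 ± 0.097, adjusted p = 5.1e-16). At 3 h its mean was 192 ± 13.2 FPKM in HY33 and 145 ± 10.6 FPKM in HY9115 (0.38 ± 0.08, under the threshold). The difference of changes was -1.36 ± 0.13 (adjusted p = 1.01e-09), and the gene rose in both cultivars between 0 h and 3 h. Ah06g067400 (chr6:7184021-7186665) was lower at 3 h, with 2.7, 3.16 and 4.06 FPKM in the HY33 libraries and 9.24, 9.92 and 10.9 FPKM in the HY9115 libraries (-1.62 ± 0.18, adjusted p = 6.81e-09). Ah16g113100 had 19.4, 20.6 and 19.2 FPKM in HY33 against 27, 26.7 and 38.1 FPKM in HY9115 (-0.67 ± 0.11, not passing). The trehalose-phosphate synthases (15) and phosphatases (10), which make another protective sugar, held no gene that passed edgeR's test at 3 h, with 1 and 2 genes at an unadjusted p under 0.05 and 0 and 0 called by DESeq2.

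Some seed-type genes were lower too, in lists counted beside the 2.06% higher and 3.78% lower of all genes. The nutrient reservoir annotation, given to seed storage globulins and their relatives, covered 20 tested genes, of which 5 were lower and none higher. Ah06g017500 (chr6:1856093-1858565) had 0.03, 0 and 0.07 FPKM in the HY33 libraries and 9.06, 14.2 and 17.1 FPKM in the HY9115 libraries (log2 difference -8.4 ± 0.71, adjusted p = 2.41e-11). Ah16g177300 (chr16:26552987-26710407) had 0.1, 0.03 and 0.33 FPKM in the HY33 libraries and 7.27, 6.14 and 7.23 FPKM in the HY9115 libraries (-5.36 ± 0.46, adjusted p = 4.25e-11). The sum over these 20 genes was 418 ± 4.16 FPKM in HY33 and 420.2 ± 9.16 FPKM in HY9115. Of 51 seed maturation genes 5 were lower and none higher, with 26 values above 0 and a median of 0.02. Of 9 genes for building oil bodies, the lipid stores of seeds, 2 were lower and none higher, with 5 values above 0. Ah16g043800, annotated to embryo development ending in seed dormancy (chr16:6888488-6889892), had 2.91, 1.58 and 1.67 FPKM in the HY33 libraries and 148, 149 and 123 FPKM in the HY9115 libraries, a log2 difference of -6.14 ± 0.32 (adjusted p = 9.35e-17). It averaged 2.62 FPKM in HY33 and 6.35 FPKM in HY9115 at 0 h and 283 FPKM in HY33 and 254 FPKM in HY9115 at 12 h, so that the cultivars were further apart at 3 h than at both neighbouring times. Ah07g237900, annotated to water deprivation, had 1.42, 1.59 and 0.65 FPKM in HY33 against 39.95, 40.8 and 33.2 FPKM in HY9115 (-5.03 ± 0.31, adjusted p = 9.06e-15), against 1.57 FPKM in HY33 and 1.86 FPKM in HY9115 at 0 h. A pair of tonoplast-type water channels carry the annotation of seed maturation. One of them, Ah05g283400, averaged 0.51 ± 0.26 FPKM in HY33 and 11.2 ± 2.22 FPKM in HY9115 (-4.5 ± 0.27, adjusted p = 6.31e-15). The other, Ah15g506200, averaged 0.29 ± 0.234 FPKM in HY33 and 4.02 ± 0.641 FPKM in HY9115 (-3.83 ± 0.41, adjusted p = 5.01e-09). Aldo-keto reductases, which detoxify reactive aldehydes or make sugar alcohols, were lower for 5 of 32 genes and higher for 1. Ah06g344400 averaged 0.243 ± 0.0404 FPKM in HY33 and 12.2 ± 2.26 FPKM in HY9115 (-5.64 ± 0.41, adjusted p = 7.25e-13). Ah16g431500 averaged 0.323 ± 0.125 FPKM in HY33 and 11 ± 2.5 FPKM in HY9115 (-5.14 ± 0.3, adjusted p = 1.65e-15). The zinc-binding annotated gene Ah08g017100 had 0.09, 0.36 and 0 FPKM in HY33 against 17.5, 24.5 and 19.5 FPKM in HY9115 (-7.14 ± 0.62, adjusted p = 5.1e-11).

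Genes of the glyoxylate cycle, which turns stored oil into sugar in germinating seedlings, were lower in HY33 at 0 h and at 3 h but not at 12 h. All 6 tested malate synthase genes and both isocitrate lyase genes, the pair of enzymes particular to the cycle, were lower at 3 h and at 0 h. Among all tested genes 3.78% were lower at 3 h and 2.75% at 0 h. The isocitrate lyase gene Ah13g176400 (chr13:18133908-18139458) had 134, 153 and 121 FPKM in the HY33 libraries and 504, 551 and 526 FPKM in the HY9115 libraries at 3 h, a log2 difference of -1.99 ± 0.19 (adjusted p = 5.76e-10), beside -2.74 ± 0.2 at 0 h. The other, Ah03g140700 (chr3:14186826-14191259), had 69.9, 69.4 and 65.7 FPKM in the HY33 libraries and 314, 353 and 351 FPKM in the HY9115 libraries (-2.34 ± 0.21, adjusted p = 1.54e-10), beside -3.34 ± 0.22 at 0 h. The libraries of the cultivars stood apart without overlap for both genes. The malate synthase gene Ah11g246200 (chr11:71652351-71655301) had 0.27, 0.08 and 0.06 FPKM in the HY33 libraries and 39.6, 42.7 and 45.1 FPKM in the HY9115 libraries (-8.32 ± 0.35, adjusted p = 4.06e-19), close to silent in HY33. Ah10g122700 had 5.74, 5.25 and 4.74 FPKM in HY33 against 22.6, 25.7 and 29.7 FPKM in HY9115 (-2.35 ± 0.22, adjusted p = 1.7e-10). Malate synthases summed to 17.6 ± 1.71 FPKM in HY33 and 161 ± 34.9 FPKM in HY9115 at 0 h, and 28.8 ± 2.1 FPKM in HY33 and 138 ± 12.5 FPKM in HY9115 at 3 h. At 12 h the sum was 65.5 ± 10.9 FPKM in HY33 and 36.8 ± 7.81 FPKM in HY9115. Isocitrate lyases summed to 148 ± 35.1 FPKM in HY33 and 1151 ± 225 FPKM in HY9115 at 0 h, and 204 ± 17.5 FPKM in HY33 and 866 ± 43.7 FPKM in HY9115 at 3 h. At 12 h the sum was 505 ± 110.1 FPKM in HY33 and 376 ± 37.1 FPKM in HY9115. The difference of changes passed as higher for 2 malate synthase genes, one of them Ah10g122700 at 1.43 ± 0.34 (adjusted p = 0.00324), and for neither isocitrate lyase gene. Ah0g001100, a malate synthase gene on an unplaced scaffold, had 21.8, 18.9 and 20.8 FPKM in HY33 against 45, 50.8 and 53.7 FPKM in HY9115 (-1.32 ± 0.12, adjusted p = 3.35e-10) and a difference of changes of 0.99 ± 0.18, just under the threshold.

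Mannose-binding lectins, abundant sugar-binding proteins of legume tissues, took the same side. Of 12 genes 4 were lower at 3 h and none higher, while at 0 h 9 were lower. Over all genes the lower shares were 3.78% at 3 h and 2.75% at 0 h. Ah09g450400 (chr9:119115410-119116597) had 465, 523 and 484 FPKM in the HY33 libraries and 1037, 1169 and 1221 FPKM in the HY9115 libraries at 3 h, a log2 difference of -1.25 ± 0.17 (adjusted p = 4.85e-07). At 0 h it averaged 89.6 FPKM in HY33 and 1215 FPKM in HY9115. Ah19g452800 (chr19:146352563-146353909), which lies in a stretch of neighbouring genes found at 24 h, had 199, 204 and 198 FPKM in the HY33 libraries and 718, 835 and 869.8 FPKM in the HY9115 libraries (-2.04 ± 0.16, adjusted p = 3.27e-12). Ah09g450100 had 254, 383 and 361 FPKM in HY33 against 777, 901 and 839 FPKM in HY9115 (-1.36 ± 0.24, adjusted p = 3.98e-05). The cultivars were closer at 3 h than at 0 h for these 3 genes, with differences of changes of 2.5 ± 0.24 (adjusted p = 2.21e-09), 1.84 ± 0.22 (adjusted p = 2.55e-07) and 1.76 ± 0.34 (adjusted p = 0.00033), and all 3 rose in HY33 between 0 h and 3 h. The summed lectin level was 581 ± 43 FPKM in HY33 and 4060 ± 263 FPKM in HY9115 at 0 h, and 1662 ± 151 FPKM in HY33 and 3710 ± 256 FPKM in HY9115 at 3 h. At 12 h the sum was 4019 ± 1151 FPKM in HY33 and 2722 ± 127 FPKM in HY9115.

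Cotyledons are part of the whole seedling, and the 37 cotyledon and seed markers, among them the glyoxylate cycle, reservoir and oil body genes above, held 15 lower and 0 higher genes. Beside them stand the 3.78% lower and 2.06% higher of all tested genes at 3 h. The summed level of the 37 markers was 765 ± 20.8 FPKM in HY33 and 1544 ± 48.2 FPKM in HY9115 at 3 h and 827 ± 44.7 FPKM in HY33 and 1873 ± 247 FPKM in HY9115 at 0 h. In such bulk samples fewer cells of a type and less RNA per cell cannot be told apart, and the part of these tissues in the results was not tested.

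**Figure D3:**
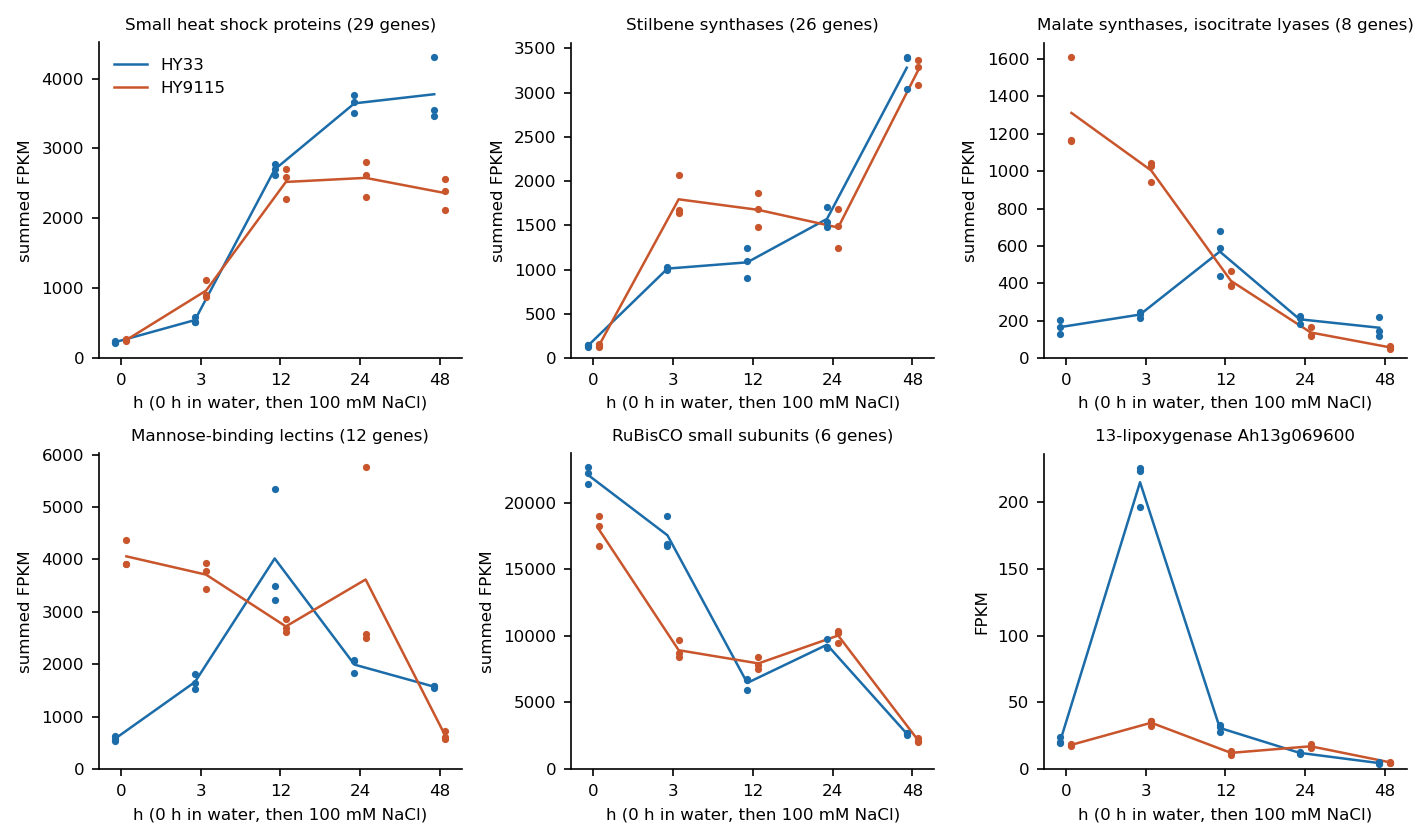
Summed FPKM of 5 gene groups and FPKM of the 13-lipoxygenase gene Ah13g069600 (vertical axes, from 0) at 0 h (water) and after 3, 12, 24 and 48 h of 100 mM NaCl (horizontal axes, not to scale); points are libraries, lines join the means of 3, and HY33 is blue and HY9115 orange. At 3 h HY33 is below HY9115 for small heat shock proteins, stilbene synthases, glyoxylate cycle enzymes and lectins and above it for RuBisCO small subunits and the 13-lipoxygenase.

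Among defence genes, a set annotated to killing cells of another organism, a term given to antimicrobial peptides such as defensins, was mostly lower in HY33. Of 14 tested genes 9 were lower in HY33 and none higher, beside 3.78% and 2.06% of all genes, and the median was -1.74. Their summed level at 3 h was 1453 to 2003 FPKM in the HY33 libraries and 4588 to 6496 FPKM in the HY9115 libraries. It averaged 1834 ± 249.8 FPKM in HY33 and 2296 ± 235 FPKM in HY9115 at 0 h and 8924 ± 1357 FPKM in HY33 and 9008 ± 2011 FPKM in HY9115 at 12 h. Between 0 h and 3 h 2 of these genes rose and 2 fell in HY33, and 8 rose in HY9115. The difference of changes passed for 8, all lower.

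A trio on chromosome 8 and a trio on chromosome 18 carried most of this. Ah08g259800 (chr8:39405468-39406629) had 46.2, 39.6 and 32.6 FPKM in the HY33 libraries and 971, 629.7 and 787 FPKM in the HY9115 libraries, a log2 difference of -4.38 ± 0.22 (adjusted p = 3.09e-17). Ah08g259900 (chr8:39421055-39421387) had 18.4, 11.2 and 16.1 FPKM in the HY33 libraries and 577, 327 and 365 FPKM in the HY9115 libraries (-4.83 ± 0.32, adjusted p = 6.17e-14). Ah08g260000 (chr8:39440084-39440591) had 223, 267 and 214 FPKM in the HY33 libraries and 1580.2, 1026 and 1145 FPKM in the HY9115 libraries (-2.45 ± 0.2, adjusted p = 6.28e-12). On chromosome 18, Ah18g182000 (chr18:24333469-24335129) had 5.28, 3.52 and 2.04 FPKM in the HY33 libraries and 347, 196 and 237 FPKM in the HY9115 libraries (-6.24 ± 0.41, adjusted p = 5.46e-14). Its neighbour Ah18g182300 (chr18:24348838-24349154) averaged 32.9 ± 4.48 FPKM in HY33 and 393 ± 89.99 FPKM in HY9115, a log2 difference of -3.62 ± 0.23 (adjusted p = 3.24e-14). Further along, Ah18g182700 (chr18:24411208-24411894) averaged 249 ± 48.8 FPKM in HY33 and 1133 ± 194 FPKM in HY9115 (-2.22 ± 0.18, adjusted p = 8.38e-12). No HY33 library reached any HY9115 library in these 6 genes, and the first HY9115 library was the highest for each. In water 4 of the 6 were lower too: Ah08g259800 (-2.88 ± 0.24), Ah08g259900 (-1.96 ± 0.36), Ah18g182000 (-3.22 ± 0.45) and Ah18g182300 (-1.6 ± 0.28), but not Ah08g260000 (-0.55 ± 0.19) and Ah18g182700 (-0.43 ± 0.17), which missed the threshold. Chromosomes 8 and 18 are counterparts in the subgenomes, and counting can split the reads of near-identical copies between them, so the single values are uncertain.

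Genes that bind abscisic acid by annotation but fall outside the receptor family were also lower. These proteins share a fold with the pathogenesis-related PR-10 family. Of 39 tested genes 16 were lower and none higher, with a median of -0.83, against 3 lower at 0 h and a median of 0. Of all genes 3.78% were lower at 3 h and 2.75% at 0 h. On chromosome 11 from 143767120 to 143934838, the 8 called genes were all lower at 3 h. Ah11g444100 (chr11:143894623-143895183) had 41.8, 42.7 and 42 FPKM in the HY33 libraries and 330, 121 and 149 FPKM in the HY9115 libraries (log2 difference -2.28 ± 0.27, adjusted p = 6.04e-08). Ah11g443600 (chr11:143843984-143854566) had 98, 88.2 and 87.1 FPKM in the HY33 libraries and 342, 167 and 200.2 FPKM in the HY9115 libraries (-1.41 ± 0.21, adjusted p = 1.94e-06). The first HY9115 library was well above the other two in both genes. Ah11g442900 (chr11:143767120-143767680) had 56.3, 52.1 and 50.3 FPKM in the HY33 libraries and 176, 79 and 111 FPKM in the HY9115 libraries (-1.24 ± 0.22, adjusted p = 4.79e-05), and without the first HY9115 library its log2 difference was -0.86, below the threshold in size.

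Further defence families were counted in the same way, beside the 2.06% higher and 3.78% lower of all genes. The pathogenesis-related list of 129 genes had 2 higher and 13 lower, with a median of -0.02. A matching pair of glucan endo-1,3-beta-glucosidases, enzymes that cut fungal cell walls and callose, was among the lower ones: Ah13g125700 (chr13:11285077-11286868) had 7.16, 5.92 and 7.92 FPKM in the HY33 libraries and 37.4, 23.4 and 25.4 FPKM in the HY9115 libraries (-2.06 ± 0.17, adjusted p = 1.7e-11). Ah03g092200 had 11, 10.6 and 8.3 FPKM in HY33 against 46.7, 27.1 and 25.6 FPKM in HY9115 (-1.77 ± 0.17, adjusted p = 4.28e-10). By 12 h both had climbed in both cultivars, and Ah13g125700 averaged 157 FPKM in HY33 and 219.9 FPKM in HY9115. Glutathione S-transferases, which attach glutathione to toxic compounds, were lower for 7 of 88 and higher for none, with 71 values below 0. Ah13g246900 (chr13:31333114-31334297) had 0.19, 0 and 0.15 FPKM in the HY33 libraries and 12.3, 16.1 and 12.7 FPKM in the HY9115 libraries (-6.85 ± 0.32, adjusted p = 4.75e-18), nearly silent in HY33. Ah12g185000 had 18.5, 19.1 and 18.2 FPKM in HY33 against 52, 41.6 and 47.3 FPKM in HY9115 (-1.37 ± 0.1, adjusted p = 9.62e-13). The most abundant, Ah20g111800, averaged 762 ± 57.9 FPKM in HY33 and 1445 ± 165 FPKM in HY9115 (-0.96 ± 0.12). Next came Ah10g075400, with 367 ± 39.1 FPKM in HY33 and 644 ± 80.4 FPKM in HY9115 (-0.85 ± 0.13). Both stayed under the threshold although the libraries did not overlap. Class III peroxidases, secreted enzymes that cross-link cell walls, had 1 higher and 8 lower of 98, and at 0 h 3 higher and 12 lower. Chitinases had 1 lower of 21, disease resistance receptors 2 higher and 2 lower of 41, and antioxidant enzymes of the ascorbate cycle and related scavengers 1 higher and 0 lower of 72.

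The phenylpropanoid pathway was lower in HY33 mainly in its stilbene and flavonoid branches, counted beside 2.06% higher and 3.78% lower of all genes. Stilbene synthases and their close relatives the chalcone synthases, which share an annotation here and so form one list, had 1 higher and 6 lower of 26 genes, with 25 values below 0 and a median of -0.78. In water the median was -0.08. They rose in both cultivars, 25 of 26 in HY33 and 26 in HY9115, and the difference of changes passed for 7, all lower. Their summed level was 138 ± 15 FPKM in HY33 and 141 ± 12.2 FPKM in HY9115 at 0 h, and 1012 ± 15.7 FPKM in HY33 and 1795 ± 236 FPKM in HY9115 at 3 h. At 12 h the sum was 1082 ± 171 FPKM in HY33 and 1675 ± 191 FPKM in HY9115.

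The abundant members differed by less than 2-fold and without overlap. Ah11g081400 (chr11:10139872-10141711) had 175, 171 and 167 FPKM in the HY33 libraries and 322, 245 and 268 FPKM in the HY9115 libraries (log2 difference -0.74 ± 0.12, adjusted p = 9.19e-06). Ah01g026000 had 115, 122 and 116 FPKM in HY33 against 271, 203 and 203 FPKM in HY9115 (-0.98 ± 0.12, adjusted p = 7.32e-08). Ah04g017300 and Ah04g098700 averaged 136 ± 2.77 FPKM in HY33 and 222 ± 27.9 FPKM in HY9115 and 135 ± 3.54 FPKM in HY33 and 234 ± 20.6 FPKM in HY9115, at -0.75 ± 0.11 and -0.84 ± 0.11. The first HY9115 library was the highest of the 6 for each of these 4 genes. A neighbouring pair on chromosome 14 was nearly silent in HY33: Ah14g113700 (13347467 to 13349785) had 0.54, 0.75 and 0.84 FPKM in the HY33 libraries and 88.2, 74 and 79.98 FPKM in the HY9115 libraries (-6.83 ± 0.15, adjusted p = 7.2e-27). Ah14g113800 (13350988 to 13353997) had 0.22, 0.3 and 0.48 FPKM in the HY33 libraries and 89.2, 69 and 75 FPKM in the HY9115 libraries (-7.83 ± 0.2, adjusted p = 3.38e-25). Both were lower at 0 h too, at -5.36 ± 0.22 and -5.92 ± 0.35, and they lie just past the end of the stretch found on that chromosome at 3 h. Ah04g096500 had 4.88, 7.29 and 6.71 FPKM in HY33 against 50.9, 39.1 and 37.2 FPKM in HY9115 (-2.78 ± 0.2, adjusted p = 6.5e-13), beside -2.1 ± 0.33 at 0 h. Only Ah04g096600 was higher in HY33 among the 26, at 45.2 ± 2.14 FPKM in HY33 and 17.3 ± 3.27 FPKM in HY9115 (1.35 ± 0.19, adjusted p = 8.2e-07).

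Flavonoid genes had 1 higher and 15 lower of 66, with 57 values below 0, a median of -0.58 at 3 h and 0.04 at 0 h, and 21 lower in the difference of changes. The lower shares of all genes were 3.78% at 3 h and 2.95% in the difference of changes. Ah03g451100, annotated as anthocyanidin reductase, the enzyme that makes the units of condensed tannins, had 0.31, 0.97 and 0.66 FPKM in HY33 against 12, 9.66 and 11.1 FPKM in HY9115 (-4.1 ± 0.44, adjusted p = 4.87e-09), and it was lower in water as well (-3.39 ± 0.45). Ah05g096400, annotated to lignan synthesis, had 0.6, 1.15 and 0.69 FPKM in HY33 against 8.91, 5.03 and 5.12 FPKM in HY9115 (-3.0 ± 0.32, adjusted p = 4.09e-09). The isoflavone 7-O-methyltransferase annotation covered 15 genes with 1 higher and 6 lower and a median of -1.6, or -0.89 with the genes at 0 in a whole group set to their bound. In Ah04g410700, which lies in a chromosome 4 stretch found at 0 h and 24 h, the level was 8.36, 5.89 and 6.27 FPKM in HY33 against 64.8, 34.1 and 36.9 FPKM in HY9115 (-2.77 ± 0.21, adjusted p = 2.38e-12). In water the cultivars averaged 5.65 FPKM in HY33 and 5.68 FPKM in HY9115.

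The shared trunk and the lignin branch were mixed, beside 2.06% higher and 3.78% lower of all genes. Lignin and phenylpropanoid genes had 7 higher and 13 lower of 136 (median -0.18), and phenylalanine ammonia-lyases, the entry enzymes, had 1 lower of 7. Ah19g527800 (chr19:155177742-155179995), a cinnamate 4-hydroxylase gene of the second step, had 3.7, 5.1 and 4.17 FPKM in the HY33 libraries and 24.7, 17.3 and 18.4 FPKM in the HY9115 libraries (-2.25 ± 0.17, adjusted p = 2.86e-12), against 9.99 FPKM in HY33 and 9.64 FPKM in HY9115 in water. Ah09g009000, a cinnamoyl-CoA reductase gene, had 1.82, 2.08 and 1.57 FPKM in HY33 against 8.65, 7.88 and 7.77 FPKM in HY9115 (-2.19 ± 0.2, adjusted p = 2.15e-10). Ah15g473100, a caffeoyl-CoA O-methyltransferase gene, had 2.38, 2.85 and 3.59 FPKM in HY33 against 14.8, 8.99 and 17.2 FPKM in HY9115 (-2.24 ± 0.28, adjusted p = 1.64e-07). All 3 means at 3 h lay below those of water in HY33 and above those of water in HY9115, with differences of changes of -2.31 ± 0.24 (adjusted p = 1.49e-08), -2.4 ± 0.28 (adjusted p = 1.11e-07) and -1.71 ± 0.42 (adjusted p = 0.00465).

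Lipoxygenases oxidise fatty acids at carbon 9 or 13, and the 13-type feeds jasmonate synthesis. These 2 types had their extreme members on opposite sides. The 13-lipoxygenase gene Ah13g069600 (chr13:6064237-6073435) had 223, 196 and 225 FPKM in the HY33 libraries and 32.2, 35.9 and 36.1 FPKM in the HY9115 libraries, a log2 difference of 2.59 ± 0.087 (adjusted p = 7.23e-22). In water it averaged 21.2 FPKM in HY33 and 18.2 FPKM in HY9115 and at 12 h 30.8 FPKM in HY33 and 12.1 FPKM in HY9115, and the difference of changes was 2.36 ± 0.12 (adjusted p = 7.68e-16). Between 0 h and 3 h it rose by 3.31 ± 0.091 on the log2 scale in HY33, while the change in HY9115, 0.95 ± 0.087, was under the threshold. By contrast the 9-lipoxygenase genes Ah18g028100 (chr18:2179015-2186264) and Ah08g145300 (chr8:25521037-25526246) had 1.59, 1.57 and 1.96 FPKM in HY33 against 42.7, 47.3 and 64.5 FPKM in HY9115 and 1.09, 0.94 and 0.84 FPKM in HY33 against 31.5, 36.6 and 52.4 FPKM in HY9115. Their log2 differences were -4.94 ± 0.26 (adjusted p = 1.21e-16) and -5.43 ± 0.3 (adjusted p = 3.03e-16), the second of which was also lower at 0 h (-3.11 ± 0.31). At 12 h the HY33 means were the higher ones, with 84.6 FPKM in HY33 and 40.6 FPKM in HY9115 for the first and 74 FPKM in HY33 and 20.7 FPKM in HY9115 for the second. The 2 most abundant 9-lipoxygenase genes, Ah09g111700 and Ah19g152400, averaged 418 ± 17.3 FPKM in HY33 and 419 ± 43.9 FPKM in HY9115 and 439 ± 8.07 FPKM in HY33 and 443 ± 41.3 FPKM in HY9115 and did not pass. Over the families, 13-lipoxygenases had 2 higher and 0 lower of 15, 9-lipoxygenases 2 higher and 4 lower of 25, and the jasmonate list 4 higher and 9 lower of 119. Of all tested genes 2.06% were higher and 3.78% lower.

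Abscisic acid genes were divided by their role in the pathway, and their counts stand beside the 5.85% of all tested genes that passed. None of 21 synthesis and breakdown genes passed in edgeR (10 had an unadjusted p under 0.05 and DESeq2 called 0), and signalling genes had 1 higher and 2 lower of 76. In water 2 of the 21 were higher and 0 lower. The difference of changes passed as lower for 4 of the 21 and as higher for 0, beside 2.95% lower of all genes. Ah07g301800, a gene for 9-cis-epoxycarotenoid dioxygenase, the limiting enzyme of abscisic acid synthesis, averaged 13.6 FPKM in HY33 and 6.63 FPKM in HY9115 at 0 h (log2 difference 1.05 ± 0.099, adjusted p = 3.07e-10). At 3 h it averaged 35 ± 3.27 FPKM in HY33 and 21.9 ± 1.48 FPKM in HY9115 (0.64 ± 0.09, adjusted p = 1.25e-06, under the fold threshold). By role, the PYR/PYL receptors (20) held none that passed in edgeR (5 at an unadjusted p under 0.05, 0 called by DESeq2), the SnRK2 kinases (24) held 1 higher, and the PP2C phosphatases (15) and ABF transcription factors (17) held 1 lower each. The phosphatase gene, Ah16g451400, which encodes a brake on the pathway that abscisic acid itself induces, had 15.9, 18.3 and 14.1 FPKM in HY33 against 34.9, 36.7 and 36.2 FPKM in HY9115 (-1.2 ± 0.096, adjusted p = 7.36e-12). It rose in both cultivars above a water level of 2.73 FPKM in HY33 and 2.91 FPKM in HY9115. The ABF-type gene Ah06g238700 had 1.95, 1.42 and 1.63 FPKM in HY33 against 4.29, 4.69 and 3.73 FPKM in HY9115 (-1.38 ± 0.17, adjusted p = 1.39e-07).

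Auxin and ethylene genes are counted here beside the 2.06% higher and 3.78% lower of all genes. Auxin genes had 8 higher and 5 lower of 224, with 161 values above 0 and a median of 0.29, close to the 0.26 of water, and without the third HY33 library at 3 h the higher count was 13. SAUR genes, short early-response genes tied to cell expansion, made up most of the higher ones, with 7 higher and 2 lower of 98. One of these, Ah13g094600, had 11, 8.15 and 10.6 FPKM in HY33 against 3.47, 2.12 and 3.39 FPKM in HY9115 (1.69 ± 0.32, adjusted p = 0.000107). Ah13g193500 (chr13:21292173-21300578), of the GH3 family that joins hormones to amino acids, had 8.79, 9.14 and 8.74 FPKM in the HY33 libraries and 1.52, 1.67 and 1.75 FPKM in the HY9115 libraries (2.39 ± 0.15, adjusted p = 1.78e-14). Its log2 difference was 1.19 ± 0.14 at 0 h, and the difference of changes was 1.2 ± 0.21 (adjusted p = 0.000104). Ethylene genes had 0 higher and 6 lower of 51, and 5 of the 14 ACC oxidase genes, which make ethylene in the last step, were among the lower ones. Ah05g318500 had 0.36, 1.15 and 0.32 FPKM in HY33 against 2.33, 2.86 and 2.43 FPKM in HY9115 (-2.13 ± 0.37, adjusted p = 3.9e-05). Ah15g475300 had 2.19, 2.21 and 1.63 FPKM in HY33 against 4.96, 5.74 and 5.04 FPKM in HY9115 (-1.43 ± 0.28, adjusted p = 0.000159). In water the means were above those at 3 h and neither gene passed, with Ah15g475300 at 33.1 FPKM in HY33 and 22.7 FPKM in HY9115.

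The transcription factor families are given as counts, beside the 5.85% of all tested genes that passed. AP2/ERF factors, which include the DREB regulators of drought genes, had 4 higher and 4 lower of 94, and MYB factors 5 higher and 8 lower of 192. None of 27 WRKY factors passed in edgeR (9 at an unadjusted p under 0.05, 0 called by DESeq2). Calcium sensors had 2 higher and 6 lower of 95. A BZR/BES1-annotated factor of brassinosteroid signalling, Ah11g239500, had 5.85, 4.56 and 5.41 FPKM in HY33 against 0.67, 1.18 and 1.23 FPKM in HY9115 (2.31 ± 0.26, adjusted p = 1.4e-08), while in water HY33 was the lower one (-1.1 ± 0.37, adjusted p = 0.0241).

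Ion transport is a process often tied to salt tolerance. Sodium and potassium transport genes had 2 higher and 4 lower of 120 (median -0.01), near the 5.85% of all genes. Ah18g197700 (chr18:28020482-28024381), annotated as a sodium and potassium to proton antiporter, had 3.36, 2.58 and 3.44 FPKM in the HY33 libraries and 0.64, 0.54 and 0.73 FPKM in the HY9115 libraries (log2 difference 2.25 ± 0.22, adjusted p = 4.2e-10), beside 1.27 ± 0.21 (adjusted p = 1.27e-05) at 0 h. Another antiporter-annotated gene, Ah11g080500, was almost silent in HY33 at 3 h, with 0.02, 0 and 0 FPKM in HY33 against 1.31, 1.35 and 1.02 FPKM in HY9115 (-6.88 ± 0.86, adjusted p = 1.94e-07). At 0 h it had 0, 0 and 0 FPKM in HY33 and 0.11, 0 and 0 FPKM in HY9115. By 12 h it had 3.2, 2.38 and 1.8 FPKM in HY33 and 0.76, 2.9 and 2.02 FPKM in HY9115. The abundant antiporter gene Ah19g256700 averaged 43.3 ± 0.839 FPKM in HY33 and 40.3 ± 1.36 FPKM in HY9115 and did not pass (0.069 ± 0.062, adjusted p = 0.484). The potassium transporter gene Ah04g146700 averaged 40.4 ± 6.75 FPKM in HY33 and 64.6 ± 3.29 FPKM in HY9115 (-0.72 ± 0.2, under the threshold). Plasma membrane proton pump genes of the P-type, whose gradient drives such antiporters, included 2 lower members. Ah10g333500 (chr10:107436138-107443373) had 1.16, 0.72 and 0.82 FPKM in the HY33 libraries and 3.93, 5.57 and 4.3 FPKM in the HY9115 libraries (-2.39 ± 0.16, adjusted p = 1.02e-13). Ah20g424100 had 3.43, 3.55 and 3.83 FPKM in HY33 against 9.86, 10.7 and 9.58 FPKM in HY9115 (-1.51 ± 0.098, adjusted p = 3.45e-14). At 12 h both were far higher in both cultivars, with 50.5 FPKM in HY33 and 64.6 FPKM in HY9115 for Ah20g424100. All proton pumps together had 0 higher and 3 lower of 57.

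Water channels and proline genes completed the osmotic set, counted beside the 2.06% higher and 3.78% lower of all genes. Aquaporins had 0 higher and 3 lower of 48, and none of the 18 plasma membrane members passed in edgeR (8 at an unadjusted p under 0.05, 0 called by DESeq2). The most abundant, Ah07g102400 and Ah19g008200, averaged 434 ± 42.6 FPKM in HY33 and 454 ± 5.01 FPKM in HY9115 and 308 ± 9.32 FPKM in HY33 and 378 ± 15.8 FPKM in HY9115, and the first overlapped between cultivars. P5CS, the first enzyme of proline synthesis, had 2 lower of 10 genes. Ah04g234400 (chr4:83121113-83132921) had 29.7, 28.7 and 28.7 FPKM in the HY33 libraries and 60.1, 62.7 and 63.9 FPKM in the HY9115 libraries (-1.14 ± 0.078, adjusted p = 1.43e-13). Ah02g265800, the more abundant one, had 62.3, 61.3 and 62.9 FPKM in HY33 against 93.9, 104 and 104 FPKM in HY9115 (-0.73 ± 0.076, under the threshold). Both genes rose in both cultivars, above 9.47 FPKM in HY33 and 14.1 FPKM in HY9115 in water for Ah02g265800, and neither passed the difference of changes (-0.2 ± 0.11 and -0.16 ± 0.11). The whole proline list had 0 higher and 3 lower of 30.

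On the higher side the most abundant genes were photosynthetic. RuBisCO small subunits, of the enzyme that fixes carbon dioxide, had 2 higher and 1 lower of 6 genes. They summed to 22100 ± 628 FPKM in HY33 and 17990 ± 1150 FPKM in HY9115 at 0 h and 17550 ± 1287 FPKM in HY33 and 8924 ± 683 FPKM in HY9115 at 3 h. Ah10g374400 (chr10:113011657-113012591) had 7125, 8001 and 7127 FPKM in the HY33 libraries and 3352, 3036 and 2904 FPKM in the HY9115 libraries at 3 h (log2 difference 1.23 ± 0.083, adjusted p = 1.08e-13). Ah20g472000 had 778, 863 and 766 FPKM in HY33 against 349, 309.5 and 294 FPKM in HY9115 (1.31 ± 0.08, adjusted p = 7.61e-15). Ah20g471800 averaged 5018 ± 351 FPKM in HY33 and 2930 ± 217 FPKM in HY9115, at 0.74 ± 0.082 under the threshold, and no library of one cultivar reached the other for any of these 3 genes. Carbonic anhydrase genes, whose products feed carbon dioxide to RuBisCO, included Ah15g388600 (chr15:135425234-135431068) with 201, 202 and 197 FPKM in the HY33 libraries and 74.7, 63.8 and 63 FPKM in the HY9115 libraries (1.54 ± 0.086, adjusted p = 6.17e-16). Its near relative Ah05g386000 had 141, 142 and 140.4 FPKM in HY33 against 57.4, 50.2 and 49.9 FPKM in HY9115 (1.4 ± 0.076, adjusted p = 3.12e-16), and both passed the difference of changes at 1.08 ± 0.12 (adjusted p = 4.52e-08) and 1.1 ± 0.11 (adjusted p = 2.28e-09). Over the family the count was 2 higher and 1 lower of 10. Ah13g240000, a gene for protochlorophyllide reductase, the light-driven step of chlorophyll synthesis, had 197, 209.7 and 199 FPKM in HY33 against 99.7, 90.5 and 89 FPKM in HY9115 (1.09 ± 0.1, adjusted p = 2.31e-10) with a difference of changes of 1.22 ± 0.14 (adjusted p = 1.4e-07). Of the LHCB4-type antenna genes, Ah10g151100 averaged 56.9 ± 3.23 FPKM in HY33 and 24.3 ± 1.23 FPKM in HY9115 (1.19 ± 0.087, adjusted p = 6.36e-13) and Ah20g213900 averaged 77.4 ± 3.1 FPKM in HY33 and 36.6 ± 2.88 FPKM in HY9115 (1.05 ± 0.092, adjusted p = 6.27e-11). Both antenna genes were named after their values were seen, and no count over the LHCB4 type was made. The planned green shoot list, of RuBisCO small subunit, light-harvesting and photosystem genes, held 2 higher and 1 lower of 32. These counts equal those of the RuBisCO small subunits alone, which also made up most of the summed green shoot level given above. Of all tested genes 2.06% were higher and 3.78% lower.

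As a whole the green shoot markers had 31 of 32 values above 0 and a median of 0.64 at 3 h, with 2 higher and 1 lower past the threshold. Their median in water was 0.22, and between 0 h and 3 h 7 of them fell in HY33 and 14 in HY9115. Models annotated as rRNA had 25 higher of 93 at 3 h and 76 at 0 h, and plastid-genome-type genes 5 higher of 11 at 3 h. Without the first HY9115 library at 3 h the higher rRNA-annotated models numbered 15. The part of shoot share and RNA quality in the higher genes was not tested. Root markers had 0 higher and 1 lower of 27, nodule markers 1 higher and 1 lower of 62, and histones and cyclins, which mark dividing cells, 1 higher and 0 lower of 95. Over all tested genes the shares were 2.06% higher and 3.78% lower.

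Some lists of cell wall and surface genes held more higher than lower members, beside 2.06% higher and 3.78% lower of all genes. Laccases, copper enzymes that polymerise lignin, had 8 higher and 0 lower of 37, with 27 values above 0 and a median of 0.53 at 3 h and 0.09 at 0 h. In water 7 of the 37 were already higher and 0 lower, and the difference of changes passed as higher for 5. The summed laccase level at 3 h was 174 to 214 FPKM in the HY33 libraries and 111 to 128 FPKM in the HY9115 libraries, and at 0 h it averaged 175 ± 46.9 FPKM in HY33 and 151 ± 17.3 FPKM in HY9115. Ah12g329700 (chr12:102330540-102335904) had 26.9, 32.2 and 36 FPKM in the HY33 libraries and 10.5, 12.5 and 13.2 FPKM in the HY9115 libraries (1.36 ± 0.21, adjusted p = 4.24e-06). Ah02g284100 had 22.7, 26.9 and 33 FPKM in HY33 against 10.5, 12.3 and 11.1 FPKM in HY9115 (1.25 ± 0.21, adjusted p = 2.69e-05). Both were higher in water too, at 1.08 ± 0.21 and 1.1 ± 0.22. Ah14g290500 had 7.2, 6.5 and 8.47 FPKM in HY33 against 1.71, 2.15 and 1.72 FPKM in HY9115 (1.96 ± 0.28, adjusted p = 1.65e-06). Ah16g114500, with 13, 14.4 and 17.2 FPKM in HY33 against 6.09, 6.42 and 7.54 FPKM in HY9115 (1.12 ± 0.16, adjusted p = 2.18e-06), was at 0.089 ± 0.16 in water and passed the difference of changes (1.03 ± 0.23, adjusted p = 0.00184). That last call was lost without any of several single libraries, for example at 0.94 without the third HY33 library at 3 h. Genes annotated to secondary cell wall formation had 12 higher and 2 lower of 123, a median of 0.37 and a sum of 1376 ± 75 FPKM in HY33 and 1001 ± 36.3 FPKM in HY9115. In water 6 of the 123 were higher and 3 lower, with a median of 0.3. None of 50 cellulose synthase genes passed in edgeR (26 at an unadjusted p under 0.05, 0 called by DESeq2).

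Suberin, cutin and wax genes, which build the plant's water-tight surfaces, had 8 higher and 3 lower of 95, and 6 were higher in the difference of changes. Ah02g009400 (chr2:1006963-1020561), a CER1-type gene for the alkanes of leaf wax, had 16.4, 13.8 and 15.4 FPKM in the HY33 libraries and 5.89, 6.18 and 5.79 FPKM in the HY9115 libraries (1.32 ± 0.13, adjusted p = 1.59e-09), against 4.75 FPKM in HY33 and 4.26 FPKM in HY9115 in water. Ah07g044800, a glycerol-3-phosphate acyltransferase gene, had 5.82, 6.39 and 6.31 FPKM in HY33 against 3.28, 2.44 and 2.65 FPKM in HY9115 (1.12 ± 0.18, adjusted p = 1.31e-05). Ah16g383600, a feruloyl transferase gene, had 9.05, 9.31 and 7.4 FPKM in HY33 against 4.12, 3.22 and 2.97 FPKM in HY9115 (1.29 ± 0.15, adjusted p = 2.79e-08). Wall-loosening genes were split, with 11 higher and 11 lower of 144. Both lists stand beside the 2.06% higher and 3.78% lower of all genes. Ah11g237700, for a pectate lyase, which cuts pectin, averaged 38.5 ± 7.18 FPKM in HY33 and 14.4 ± 0.421 FPKM in HY9115 (1.38 ± 0.12, adjusted p = 1.51e-11). Another gene of this kind, Ah01g218600, averaged 23.4 ± 3.84 FPKM in HY33 and 9.99 ± 0.223 FPKM in HY9115 (1.19 ± 0.15, adjusted p = 7.55e-08). On the lower side Ah08g180400, a xyloglucan endotransglucosylase gene, had 41.8, 38.9 and 41.7 FPKM in HY33 against 97.1, 117 and 111 FPKM in HY9115 (-1.44 ± 0.1, adjusted p = 2.52e-13), beside -1.9 ± 0.1 at 0 h.

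Sugar, clock and fermentation genes added single members in both directions, and counts of lists stand beside the 2.06% higher and 3.78% lower of all genes. Ah03g117700 (chr3:10874149-10885784), an invertase gene whose product splits sucrose, had 64.1, 63.4 and 67.5 FPKM in the HY33 libraries and 21.8, 22.6 and 22.2 FPKM in the HY9115 libraries (1.52 ± 0.091, adjusted p = 4.26e-15). Ah03g058700, for the ADP-glucose pyrophosphorylase that commits carbon to starch, had 5.78, 5.73 and 5.98 FPKM in HY33 against 25.5, 28.2 and 30.1 FPKM in HY9115 (-2.29 ± 0.15, adjusted p = 1.72e-14) and was lower in water as well (-1.91 ± 0.14). The sugar and starch list had 5 higher and 8 lower of 108. Of 24 clock genes 1 passed, the PRR7-type gene Ah13g046000 with 90.5, 82.4 and 90.3 FPKM in HY33 against 38, 39.8 and 41.7 FPKM in HY9115 (1.1 ± 0.077, adjusted p = 2.18e-13), beside 0.36 ± 0.077 at 0 h, and a role of sampling time in this was not tested. Fermentation genes had 1 higher and 5 lower of 36. The pyruvate decarboxylase gene Ah04g273100 had 11.5, 10.3 and 10.1 FPKM in HY33 against 1.3, 1.77 and 1.82 FPKM in HY9115 (2.66 ± 0.17, adjusted p = 1.22e-14). The alcohol dehydrogenase gene Ah17g425400 had 47.3, 52.3 and 44.4 FPKM in HY33 against 115, 106 and 106 FPKM in HY9115 (-1.22 ± 0.12, adjusted p = 5.06e-10). The first was further apart in water (3.68 ± 0.18) and the second did not pass there (-0.16 ± 0.11). None of 34 nitrogen assimilation genes passed in edgeR (16 at an unadjusted p under 0.05, 0 called by DESeq2), ribosomal protein genes had 3 higher and 3 lower of 279, and senescence genes 4 higher and 11 lower of 185.

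Among genes higher in HY33 at 3 h, 65 had a log2 difference of 3 to 5 and 230 one over 5. A few of them are described here. Ah18g301700 (chr18:94629627-94631710), annotated as a beta-galactosidase, had 11.6, 9.02 and 7.85 FPKM in the HY33 libraries and 0.17, 0.15 and 0.29 FPKM in the HY9115 libraries (5.36 ± 0.62, adjusted p = 2.4e-08), while in water it averaged 0.2 FPKM in HY33 and 0.327 FPKM in HY9115. Next to each other on chromosome 17 lie Ah17g322600, annotated as a 6'-deoxychalcone synthase of the aldo-keto reductase family, and Ah17g322700. Ah17g322600 (93633773 to 93635072) had 12.1, 8.41 and 13.8 FPKM in the HY33 libraries and 0.37, 0.11 and 0.42 FPKM in the HY9115 libraries (5.14 ± 0.38, adjusted p = 7.18e-13). Ah17g322700 (93635082 to 93676025) had 11.5, 10.8 and 12.8 FPKM in HY33 against 1.35, 0.96 and 1.1 FPKM in HY9115 (3.32 ± 0.24, adjusted p = 4.99e-13). Both passed the difference of changes, at 3.91 ± 0.57 (adjusted p = 6.97e-06) and 2.67 ± 0.33 (adjusted p = 3.34e-07), and counting without known strand may share reads between them. The choline kinase annotated gene Ah18g364800 had 16.5, 10.8 and 16.3 FPKM in HY33 against 0.28, 0.26 and 0.36 FPKM in HY9115 (5.52 ± 0.25, adjusted p = 1.62e-18), beside 2.78 ± 0.25 at 0 h. It was not silent in HY9115 later, with 12.4 FPKM in HY33 and 8.2 FPKM in HY9115 at 24 h and 5.32 FPKM in HY33 and 2.79 FPKM in HY9115 at 48 h.

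**Figure D4:**
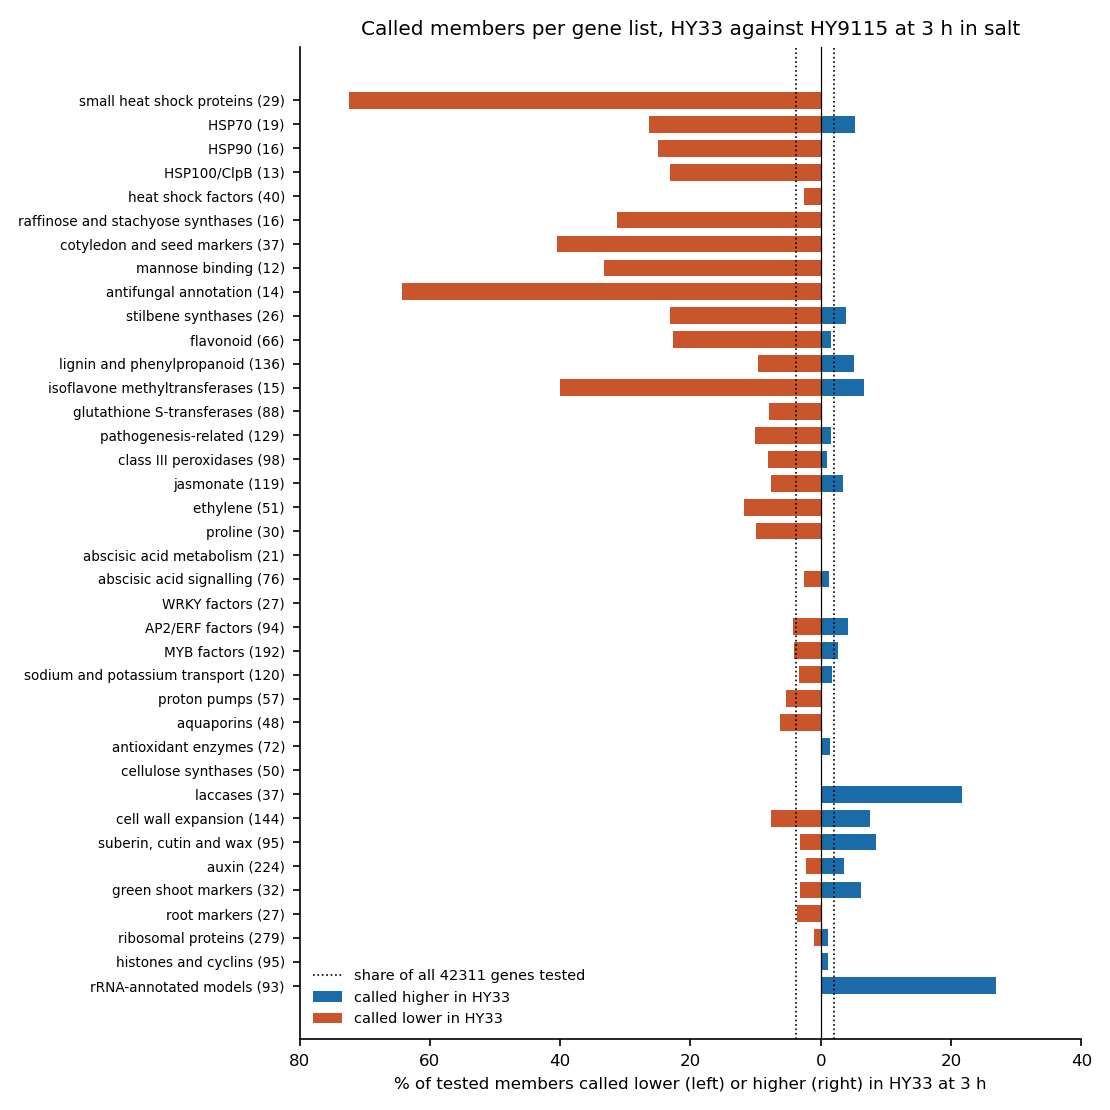
Share of the tested members of each gene list (rows, with the number tested in brackets) called higher in HY33 (blue, to the right) or lower (orange, to the left) at 3 h in 100 mM NaCl, in percent; dotted lines mark the 2.06% higher and 3.78% lower of all 42311 genes tested. Of the lists drawn, small heat shock proteins reach furthest to the left and rRNA-annotated models and laccases furthest to the right.

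**Figure D5:**
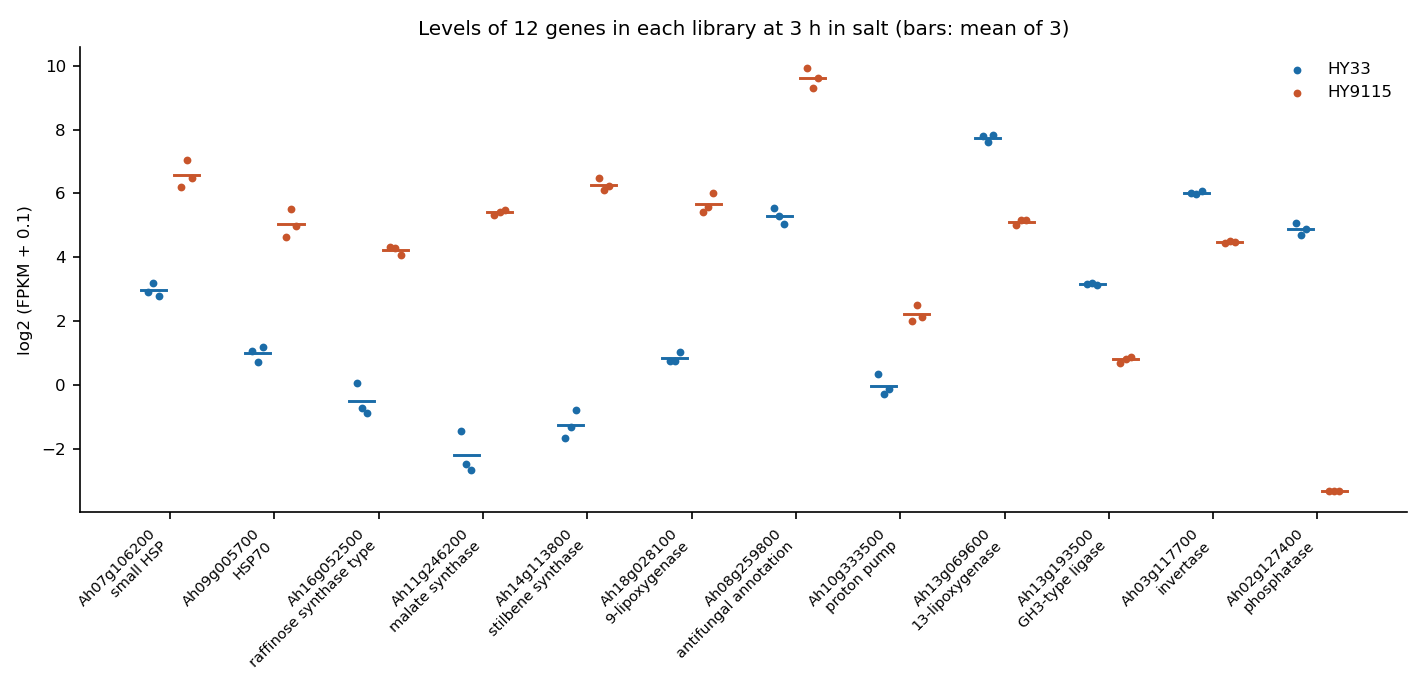
Levels of 12 genes named in the text in each of the 6 libraries at 3 h, as log2 of FPKM plus 0.1 (vertical axis); each point is a library, short bars are means of 3, HY33 is blue on the left and HY9115 orange on the right of each gene. The libraries of the cultivars do not overlap for any of the 12, with HY33 below HY9115 in the first 8 and above it in the last 4.

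Some genes had reads in one cultivar only at 3 h. With at least 10 counts in each library of one cultivar and none in the other, 111 genes were detected in HY33 only and 68 in HY9115 only. Computed against 3 counts over the group, the folds were at least 12.9 to 386 for HY33 only genes and at least 11.1 to 263 for HY9115 only genes. These were mostly standing differences: 97 of the 111 and 61 of the 68 also passed at 0 h, and 36 and 29 had no count in the other cultivar at any other time and a count in all 12 other libraries of their own. Ah02g127400 (chr2:17572659-17574316), annotated as a phosphatase, had 33.8, 25.9 and 29.5 FPKM in the HY33 libraries and 0 in all HY9115 libraries, at least 386-fold higher. Ah03g335600 (chr3:76621616-76624695) had 0 in all HY33 libraries and 31.9, 36.5 and 32.6 FPKM in the HY9115 libraries, at least 200-fold lower. Ah10g149900, with a porin annotation, averaged 12.4 FPKM in HY33 and was at 0 in HY9115, and Ah01g191200, a transcription factor by annotation, was at 0 in HY33 and averaged 13.6 FPKM in HY9115. Several chromosome 13 genes had a different history. Among them Ah13g395100, of the GSK3 kinase type, and Ah13g428300, a receptor-like kinase, averaged 20.1 and 11.7 FPKM in HY33 at 3 h and were at 0 in HY9115. Both were at 0 in every library of both cultivars at 0 h. At 12 h they averaged 15.2 and 9.33 FPKM in HY33. Ah13g422200, Ah13g353900 and Ah13g422000, also detected in HY33 only at 3 h, likewise had a log2 difference of 0 at 0 h. Each of these chromosome 13 genes had counts in 9 of the 12 HY33 libraries of other times.

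Some genes at or near 0 in one cultivar had a gene of the same annotated type or class on the other side. Ribosomal proteins are a broad class of 279 tested genes with 3 higher and 3 lower, so its members on both sides need not be a pair. For the nucleosome assembly protein 1 type, Ah15g526200 had 9.65, 7.57 and 9.2 FPKM in HY33 and 0 in HY9115, while Ah02g308800 was at 0 in HY33 and had 5.88, 5.23 and 5.81 FPKM in HY9115. Among genes of the polyubiquitin-binding proteasome subunit type, Ah09g154000 had 29.4, 23.1 and 28 FPKM in HY33 against 0.27, 0.66 and 0.31 FPKM in HY9115 and Ah09g269200 had 0.06, 0 and 0 FPKM in HY33 against 8.03, 9.39 and 8.13 FPKM in HY9115. Among ribosomal protein genes, Ah15g513200 averaged 58.8 ± 1.68 FPKM in HY33 and 0.237 ± 0.107 FPKM in HY9115 and Ah02g122800 averaged 14.8 ± 1.24 FPKM in HY33 and 0.0633 ± 0.0603 FPKM in HY9115. On the lower side Ah04g101100 averaged 0.0267 ± 0.0462 FPKM in HY33 and 11.5 ± 1.41 FPKM in HY9115. All 7 of these had passed in the same direction at 0 h, and the kinase gene Ah09g114300, with 69.4, 51.9 and 67.3 FPKM in HY33 against 0, 0.13 and 0 FPKM in HY9115, had as well. The part in these values of sequence differences between a cultivar and the genome used for counting was not tested.

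Called genes were spread over all 20 chromosomes, with 4.70% of tested genes called on chromosome 7 at the low end and 7.57% on chromosome 2 at the high end. In 7 places at least 6 of 10 consecutive tested genes were called, and each place is given from its first to its last called gene. On chromosome 4 from 11761221 to 12212958, the 7 called genes were all lower, and all 7 were called at 0 h too, among them Ah04g102300 with 0 in the HY33 libraries and 31.1, 33.5 and 29.96 FPKM in the HY9115 libraries. On chromosome 17 from 2678978 to 2956009, the 6 called genes were all lower, and Ah17g032300 had 5.45, 4.88 and 5.01 FPKM in HY33 against 13.9, 15.8 and 14.6 FPKM in HY9115 at 3 h (-1.56 ± 0.082, adjusted p = 1.38e-16) but 0.02 FPKM in HY33 and 17 FPKM in HY9115 at 0 h. On chromosome 5 from 49350773 to 50461870, by contrast, the 6 called genes were all higher at 3 h and 1 was called at 0 h. One of them, Ah05g235600, annotated to cell wall organisation, had 28.1, 29.8 and 29.1 FPKM in HY33 against 8.57, 9 and 7.03 FPKM in HY9115 (1.79 ± 0.15, adjusted p = 9.99e-12). It averaged 19.2 FPKM in HY33 and 19.8 FPKM in HY9115 at 0 h, and its difference of changes was 1.82 ± 0.2 (adjusted p = 4.47e-08).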

How the data were processed

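Poly(A) RNA of whole seedlings was sequenced as paired reads in 30 libraries, and the 6 libraries of HY33 and HY9115 at 3 h in 100 mM NaCl were compared. Per the submitters' processing notes, the authors worked with HISAT2 2.2.1, HTSeq 0.6.1, cutadapt 1.9.1 and DESeq2. The strand setting, genome build and annotation release were not given in the sources used here. The authors deposited raw counts per gene and FPKM values side by side, and each FPKM equals the count divided by gene length and library total in 100% of values within 0.005. Gene functions are the KO and GO identifiers of the deposited table, which has 0 text descriptions, and 27351 of the 42311 tested genes have one.

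Tests on the deposited counts used edgeR's quasi-likelihood fit (version 4.0.16, R 4.3.3) with TMM scaling, all 30 libraries and 1 coefficient a group. A call needed a log2 difference of at least 1 in size together with an adjusted p (Benjamini-Hochberg) under 0.05. Errors of log2 differences are standard errors from that fit, and errors of FPKM means are SDs over 3 libraries. Counts were present, so the limma test on log2 FPKM written as a fallback was not needed. The filter of 1 FPKM in 3 libraries kept 99.57% of counts, and the 6 libraries held 15110297 to 18788677 counts, which limits precision for low genes. Fold bounds against 0 use a floor of 3 counts over a group and cover counting error only. On simulated counts for HY33 minus HY9115 at 3 h over 42311 genes, 96% of 100 genes changed 2-fold passed the adjusted p and 56% were called, since the fold threshold equals the simulated fold, and 100% of 100 genes changed 4-fold were called. In this simulation only genes above a minimum mean count were changed and every gene had the same spread. Its shares may therefore not hold for low or more variable genes. No chi-square comparison marked a pair of replicates as one library deposited more than once.

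The comparison, its members and the lists were chosen with earlier results of these data known, so no pattern here is independent support for those. Genes were named by a rule: the 12 largest called differences each way with at least 5 FPKM and no overlap, the 3 largest called and 2 most abundant members of each list, the 6 most abundant one-cultivar genes each way, the 8 largest differences of changes each way, and the 10 most abundant genes. Genes outside this rule, named after their values were seen, were the antifungal, laccase, carbonic anhydrase, protochlorophyllide reductase and LHCB4 genes, and Ah07g106200, Ah13g499200, Ah19g016400, Ah09g005700, Ah11g340000, Ah05g450000, Ah17g046800, Ah07g041700, Ah16g055700, Ah16g113100, Ah16g043800, Ah07g237900, Ah06g344400, Ah16g431500, Ah0g001100, Ah10g122700, Ah09g450400, Ah19g452800, Ah09g450100, Ah04g410700, Ah11g444100, Ah11g443600, Ah11g442900, Ah04g102300, Ah05g235600 and Ah04g096600. The lists of antifungal genes, laccases, secondary wall genes, carbonic anhydrases and ACC oxidases were also set after values were seen. Alternatives covered scaling, filters, the fitted libraries, the replicate number, DESeq2 1.42.0, stretches of neighbouring genes and each library left out. Near-identical copies from both subgenomes can share reads, so single members of a family are uncertain.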

Additional observations from a re-analysis of the deposited data

Results flagged for a closer look

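The change between 0 h and 3 h differed between HY33 and HY9115, by the edgeR test of the difference itself, for 1881 genes. Among the genes named above that passed it, the difference (log2 change in HY33 minus log2 change in HY9115, in brackets) was most negative for Ah09g260000 (-8.73), Ah06g017500 (-7.59), Ah13g246900 (-7.16), Ah08g017100 (-5.88), Ah16g177300 (-5.46), Ah06g344400 (-5.14), Ah16g043800 (-4.85), Ah07g237900 (-4.75), Ah16g431500 (-4.75), Ah19g016400 (-4.32) and Ah13g499200 (-4.03). It was negative by less for Ah18g028100 (-3.96), Ah09g005700 (-3.9), Ah16g052500 (-3.62), Ah07g106200 (-3.5), Ah15g506200 (-3.29), Ah06g109100 (-3.18), Ah05g283400 (-3.1), Ah18g182000 (-3.02), Ah11g340000 (-2.99), Ah08g259900 (-2.86), Ah04g410700 (-2.76), Ah05g318500 (-2.52), Ah09g009000 (-2.4), Ah08g145300 (-2.32), Ah19g527800 (-2.31) and Ah18g182300 (-2.01). It was negative by least for Ah15g475300 (-1.99), Ah06g067400 (-1.9), Ah08g260000 (-1.9), Ah11g442900 (-1.84), Ah18g182700 (-1.79), Ah15g473100 (-1.71), Ah13g125700 (-1.7), Ah10g333500 (-1.58), Ah11g443600 (-1.54), Ah16g113100 (-1.5), Ah08g259800 (-1.5), Ah05g450000 (-1.48), Ah14g113700 (-1.47), Ah03g092200 (-1.4), Ah09g150200 (-1.36), Ah16g451400 (-1.11), Ah17g425400 (-1.06), Ah16g055700 (-1.05) and Ah04g273100 (-1.01). It was above 0, so that HY33 gained more or lost less than HY9115, for Ah16g114500 (1.03), Ah15g388600 (1.08), Ah05g386000 (1.1), Ah02g009400 (1.15), Ah13g193500 (1.2), Ah13g240000 (1.22), Ah10g122700 (1.43), Ah09g450100 (1.76), Ah05g235600 (1.82), Ah19g452800 (1.84), Ah13g069600 (2.36), Ah09g450400 (2.5), Ah17g322700 (2.67), Ah18g364800 (2.74), Ah11g239500 (3.41), Ah17g322600 (3.91), Ah18g301700 (5.93) and Ah17g032300 (7.75). A negative value means that the gene gained less or lost more in HY33 than in HY9115. Each rests on both the 0 h and the 3 h libraries, and the adjusted p of each was under 0.05. No group here has more than 3 libraries, so single libraries were not examined as outliers. Without HY33 3 h replicate 1, the call was lost for Ah16g055700 (-0.99) and Ah14g113700 (-1.3). Without HY33 3 h replicate 2, the call was lost for Ah04g273100 (-0.994). Without HY33 3 h replicate 3, the call was lost for Ah16g055700 (-1.007), Ah15g506200 (-2.94), Ah16g451400 (-0.995), Ah04g273100 (-0.95), Ah17g425400 (-0.98) and Ah16g114500 (0.94). Without HY9115 3 h replicate 1, the call was lost for Ah16g055700 (-0.92), Ah17g425400 (-0.999) and Ah16g114500 (0.99). Without HY9115 3 h replicate 2, the call was lost for Ah04g273100 (-0.95). Without HY9115 3 h replicate 3, the call was lost for Ah16g055700 (-1.03) and Ah04g273100 (-0.91). Without HY33 0 h replicate 1, the call was lost for Ah16g055700 (-0.9), Ah06g017500 (-7.35), Ah15g506200 (-3.36), Ah14g113700 (-1.09), Ah16g451400 (-0.98) and Ah18g182000 (-2.64). Without HY33 0 h replicate 2, the call was lost for Ah16g055700 (-1.02), Ah06g017500 (-7.72), Ah15g506200 (-2.42), Ah08g017100 (-5.7), Ah14g113700 (-1.52), Ah04g273100 (-0.9), Ah17g425400 (-0.91) and Ah16g114500 (0.88). Without HY33 0 h replicate 3, the call was lost for Ah06g017500 (-7.65) and Ah16g114500 (0.89). Without HY9115 0 h replicate 1, the call was lost for Ah16g055700 (-1.08) and Ah16g114500 (0.98). Without HY9115 0 h replicate 2, the call was lost for Ah16g055700 (-0.87), Ah15g506200 (-2.9) and Ah17g425400 (-0.98). Without HY9115 0 h replicate 3, the call was lost for Ah16g451400 (-0.96), Ah04g273100 (-0.87) and Ah16g114500 (0.998).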

How the results depend on the processing

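The 2474 genes called at 3 h kept within 1.5 times under all but 1 of the settings tried, with 2017 to 2956 calls over scaling, filter, fitted libraries, DESeq2 and the stretches of neighbouring genes. The exception was a filter of 5 FPKM in 3 libraries, where fewer genes were tested and 1432 were called at 3 h (445 higher, 987 lower) and 1344 at 0 h. Without each of the libraries in turn, calls ran from 2295 to 2480 at 3 h, from 2214 to 2445 at 0 h and from 1582 to 1973 for the difference of changes. The share of higher calls at 3 h was 35.3%, against 38% with library totals only and 39.8% with TPM scaling, and no scaling moved the median difference of all genes by more than 0.052.

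Replicate numbers of the labels did not pair the samples: the correlations of deviations between same-numbered libraries at 3 h were -0.027, -0.03 and 0.008, and all 135 same-numbered pairs over the 30 libraries ran from -0.155 to 0.111. With the replicate number as a block, 2452 genes were called at 3 h, 2401 at 0 h and 1855 for the difference of changes.

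At the 5 FPKM filter the pathogenesis-related genes lower in HY33 numbered 7 and not 13, the auxin genes higher 4 and not 8, the rRNA-annotated models higher 10 and not 25, and the laccases higher 5 and not 8. Raffinose and stachyose synthases lower numbered 3 and not 5 where 1 FPKM was required in 3 of the 6 libraries. Genes detected in one cultivar only were 133 and 76 at a minimum of 5 counts in each library and 81 and 49 at 20, a choice added after the data were seen, as were the alternatives for the changes within each cultivar (5682 to 5948 in HY33, 6126 to 6246 in HY9115). Of the 129 named genes, 125 kept their direction and their side of the threshold at 3 h under every setting tried for them, Ah11g442900 was not called without the first HY9115 library at 3 h (-0.86), and Ah01g026000, Ah16g055700 and Ah20g111800 were called under some settings though not in the fit reported. For the difference of changes 108 kept theirs, 41 of 2188 values lost the call and 34 gained one, and none reversed at either. The cause was not tested for any of these shifts.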
